A study of Mus musculus with 6 samples.

Results

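A set of 10 genes of lipoprotein formation were followed in 6 mouse livers: the apolipoprotein genes Apoa1, Apoa2, Apoa4, Apoa5, Apob, Apoc1, Apoc2, Apoc3 and Apoe, and Mttp. They were chosen by function and by gene name, and all 10 of 10 were found among the 41838 genes of the deposited table. The livers came from 3 Alkbh5-HKO mice, written Alkbh5-CKO in the genotype label, and 3 Alkbh5-flox mice, whose label reads Alkbh5flox/flox. ALKBH5 takes the methyl group off N6-methyladenosine in RNA, and the series asks what its loss does to liver function. The animals were on normal chow, 9 weeks of it by one description and aged 9 weeks by the other. The labels name neither the driver of the deletion nor the sex or feeding state of the animals, and call the 3 of each group independent biological replicates.

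Apolipoproteins coat and organise lipoprotein particles. The liver secretes very low density lipoprotein on a scaffold of APOB, which MTTP loads with triglyceride in the endoplasmic reticulum, and it makes most of the APOA1 and APOA2 of high density lipoprotein (HDL). Smaller, exchangeable apolipoproteins set how fast the particles are used: APOC2 activates lipoprotein lipase, APOC3 opposes it, APOA5 promotes it, and APOE is the ligand by which remnants are taken up. Several of these genes sit side by side on chromosomes, and hepatocytes express them under HNF4A and related factors.

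Alkbh5 itself was at 0.508, 0.443 and 0.476 FPKM in HKO livers, against 17.8, 16.8 and 14.8 FPKM in flox livers, which leaves 2.89% of the flox mean. FPKM are fragments scaled to gene length and to a size for each library, so they can be compared between genes. Recovered depth was 14907384 to 17034754 fragments per library. HKO library 1 lay farthest out on the first principal component and had the highest share of mitochondrial reads, 5.67%, where the other 5 libraries had 3.66% to 4.68%. None of the 10 hepatocyte markers was at 0 throughout, and their sum was 60129 to 64366 FPKM in HKO and 50821 to 63147 FPKM in flox. Alb made up most of that sum: the other 9 summed to 24382 to 26225 FPKM in HKO and 24785 to 31053 FPKM in flox. A lower mean log2 level in HKO was seen for 7 of the 10, but the median log2 difference of the 10 was -0.005. For Ttr, Asgr1 and Serpina1a, counted as lower, the difference was only -0.009, -0.001 and -0.0007. In bulk tissue, fewer cells of a type and less RNA per cell cannot be told apart. Summed red cell markers were 105 to 209 FPKM in HKO and 352 to 674 FPKM in flox, and summed T and NK cell markers 4.37 to 6.7 FPKM in HKO and 1.59 to 2.66 FPKM in flox. Summed cholangiocyte markers were 20.7 to 23.3 FPKM in HKO and 26.2 to 36.4 FPKM in flox. Nearly all of that was Spp1, at 21.2, 20.1 and 19.3 FPKM in HKO and 24.8, 29.2 and 33.7 FPKM in flox. Of the other markers, all averaging under 1 FPKM, Epcam had a lower mean in HKO, and Krt19, Krt7, Sox9 and Cftr had a higher one. The part of these cells in the results was not tested.

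The clearest difference lay within one cluster. Apoa1, Apoc3, Apoa4 and Apoa5 lie within 43.3 kb of chromosome 9 (positions 46228630 to 46271919, GRCm38.p6). Apoa4 lay higher in each HKO liver than in any flox liver, while Apoa1 and Apoa5 lay lower. Apoc3, between Apoa1 and Apoa4, overlapped between groups, and no gene of the cluster passed 0.05 after adjustment over all genes. The 250 bases upstream of the annotated start are shown for Apoa1, Apoa4 and Apoa5, whose levels differed in opposite directions. The sequences are from RefSeq on GRCm38.p6, plus strand, with matches to 4 short motifs in capitals.
Apoa1 (chr9:46228380-46228629): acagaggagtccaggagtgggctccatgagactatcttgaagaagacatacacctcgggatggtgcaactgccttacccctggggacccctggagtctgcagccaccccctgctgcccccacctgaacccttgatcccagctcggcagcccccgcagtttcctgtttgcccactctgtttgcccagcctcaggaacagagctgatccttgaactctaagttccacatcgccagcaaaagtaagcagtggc
Apoa4 (chr9:46240594-46240843): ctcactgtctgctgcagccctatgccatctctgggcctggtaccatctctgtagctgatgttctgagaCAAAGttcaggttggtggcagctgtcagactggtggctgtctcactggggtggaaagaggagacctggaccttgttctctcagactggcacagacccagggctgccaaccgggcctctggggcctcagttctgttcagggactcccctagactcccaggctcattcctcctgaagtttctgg
Apoa5 (chr9:46268358-46268607): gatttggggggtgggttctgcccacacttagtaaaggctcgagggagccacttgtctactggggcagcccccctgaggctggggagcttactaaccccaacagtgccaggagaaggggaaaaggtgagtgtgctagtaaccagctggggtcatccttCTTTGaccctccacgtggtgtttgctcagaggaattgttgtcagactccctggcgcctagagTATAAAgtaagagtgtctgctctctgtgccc
The first motif searched was AGGTCA, bound by nuclear receptors. Another was CAAAG, the core of sites for HNF4. The TATA box was searched as TATAAA. The last was TGACG, a part of the cyclic AMP response element. Both strands were searched, and no matches overlapped in these windows. The Apoa1 window held none of the 4. The Apoa4 window held 1 CAAAG, 182 to 178 bases before the start. The Apoa5 window held 1 CAAAG on the opposite strand, 93 to 89 bases before the start, and 1 TATAAA, 31 to 26 bases before it. Of 32851 windows of the same length, CAAAG is in 48.6%. The TATAAA motif is in 12.4% of them. For AGGTCA the share is 14.0%, and for TGACG it is 17.8%. These matches describe the letters only.

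Apoa4 encodes a protein of chylomicrons and HDL that mouse liver makes beside the intestine. It had 437, 1451 and 478 FPKM in HKO livers, against 163, 102 and 81.3 FPKM in flox livers. All 3 HKO libraries lay above all 3 flox libraries, and HKO library 2 stood highest. The means were 789 ± 574 FPKM in HKO and 115 ± 42.7 FPKM in flox (SD, n = 3 each), a ratio of 6.83. The log2 fold change, on log2(FPKM + 1) and HKO minus flox as throughout, was 2.59 (SE 0.49, 95% interval 1.43 to 3.76). Tested with limma and Benjamini-Hochberg (BH) adjustment over 10453 genes, its unadjusted p was 0.00119 and its adjusted p 0.0755, so Apoa4 did not pass 0.05. Without HKO library 2 the log2 fold change was 2.04, and over the 17 alternative settings it lay between 2.04 and 2.90 (limma BH adjusted p between 0.0638 and 0.237). Of 10 enterocyte markers 5 were at 0 in every library, Alpi, Sis, Cdx1, Cdx2 and Krt20, and the summed list was 70.9 to 105 FPKM in HKO and 92.1 to 99.8 FPKM in flox, nearly all of it Fabp2 and Anpep.

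Apoa5 encodes a plasma protein that speeds triglyceride clearance by lipoprotein lipase. It had 295, 188 and 417 FPKM in HKO livers, against 740, 778 and 545 FPKM in flox livers. The groups did not overlap, and the highest HKO library was at 417 FPKM where the lowest flox library was at 545. The means were 300 ± 115 FPKM in HKO and 688 ± 125 FPKM in flox (SD, n = 3 each), a log2 fold change of -1.25 (SE 0.3, 95% interval -1.95 to -0.55). It did not pass, with an unadjusted p of 0.00373 (limma BH adjusted p = 0.106). The HKO library with the most Apoa4, library 2, had the least Apoa5. The ratio of Apoa4 to Apoa5 FPKM was 1.48, 7.73 and 1.15 in HKO, against 0.221, 0.131 and 0.149 in flox.

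Apoa1 encodes the main structural protein of HDL and was the fifth most abundant transcript of the table. It had 3298, 8145 and 9024 FPKM in HKO livers, against 10223, 12075 and 9875 FPKM in flox livers. The groups did not overlap, but HKO library 1 stood far below the other two. The log2 fold change was -0.78 (SE 0.37, limma BH adjusted p = 0.342), and -0.32 without HKO library 1 (limma BH adjusted p = 0.358). Apoc3, an inhibitor of lipoprotein lipase that is read from the opposite strand between Apoa1 and Apoa4, had 1682, 1336 and 1643 FPKM in HKO livers, against 1430, 1932 and 1780 FPKM in flox livers. The groups overlapped, and its log2 fold change was -0.14 (95% interval -0.55 to 0.28), or -0.26 to -0.03 with a library left out. The ratio of Apoa4 to Apoa1 FPKM was 0.133, 0.178 and 0.053 in HKO, against 0.016, 0.00842 and 0.00823 in flox. Of the 6 other genes within 100 kb of the cluster, 2 were tested, and neither passed. Zpr1, next to Apoa5, had a log2 fold change of -0.17.

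**Figure D1:**
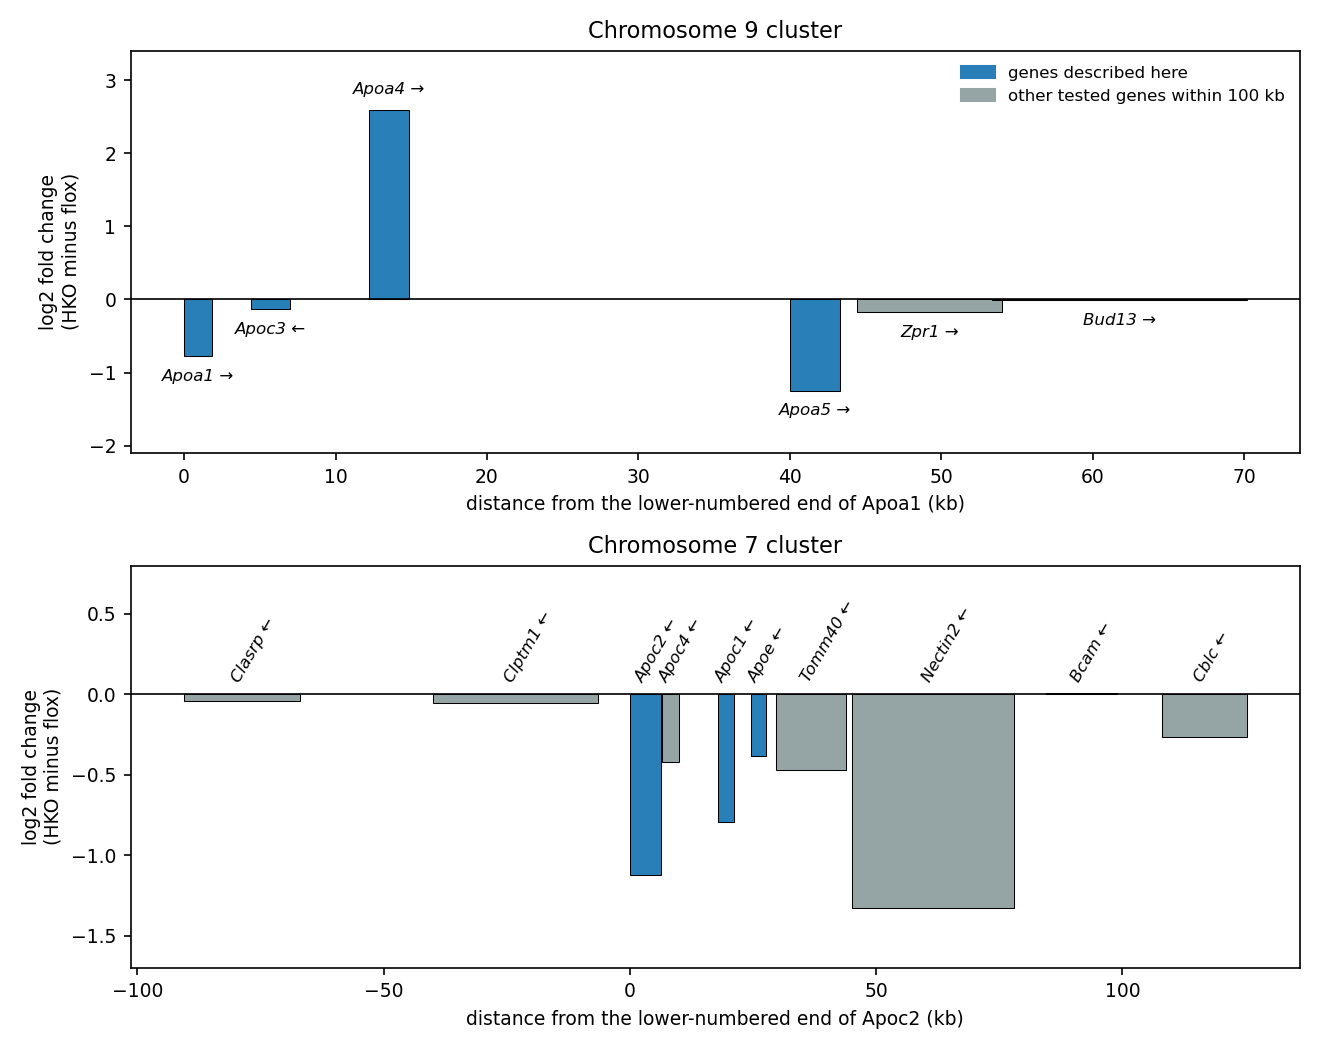
Log2 fold change (HKO minus flox, vertical axis) of each tested gene along the chromosome 9 and chromosome 7 clusters, drawn over the extent of the gene body at its distance in kb from one end of Apoa1 or Apoc2; arrows give the direction of transcription. Apoa4 stands at 2.59 between Apoc3 at -0.14 and Apoa5 at -1.25, and on chromosome 7 the neighbour Nectin2 stands at -1.33.

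On chromosome 7, Apoe, Apoc1 and Apoc2 lie within 27.6 kb (19671579 to 19699188, all on the minus strand), with Apoc4 between Apoc2 and Apoc1. Apoe, the ligand for remnant uptake, was the most abundant of the 10 genes and second in the whole table. It had 6736, 10720 and 13118 FPKM in HKO livers, against 11224, 14384 and 13023 FPKM in flox livers. The groups overlapped, with HKO library 1 lowest, and the log2 fold change was -0.38 (SE 0.26, limma BH adjusted p = 0.483) or -0.11 without that library and -0.59 without HKO library 3. Macrophages also express Apoe, and the 12 Kupffer cell and macrophage markers summed to 207 to 370 FPKM in HKO and 203 to 306 FPKM in flox.

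Apoc1 encodes a small exchangeable apolipoprotein of triglyceride-rich particles and HDL. It had 727, 2122 and 3740 FPKM in HKO livers, against 2260, 3412 and 3881 FPKM in flox livers. Its spread within HKO was the widest of the genes that lay lower: the log2 fold change was -0.79 (SE 0.57), the groups overlapped, and it was -0.14 without HKO library 1 and -1.32 without HKO library 3. Apoc2, the cofactor of lipoprotein lipase, had 5.53, 12.9 and 9.52 FPKM in HKO livers, against 22.4, 27.8 and 13.7 FPKM in flox livers. The groups did not overlap. The log2 fold change was -1.13 (SE 0.34, 95% interval -1.92 to -0.33), and the unadjusted p 0.0121 (limma BH adjusted p = 0.168). Apoc2 was the least abundant of the 10 and rested on 72, 192 and 116 fragments in HKO and 294, 314 and 182 in flox, where each other gene had at least 2218 in every library. Its whole gene body of 6363 bases also lies inside a readthrough gene on the same strand, Apoc4-apoc2, listed at no more than 0.095 FPKM. No label says how reads shared by both were counted, so the Apoc2 level is uncertain.

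The gene that passed in this region was a neighbour. Nectin2, which encodes a cell adhesion protein and lies beyond Tomm40 from Apoe, had 9.16, 11.1 and 14 FPKM in HKO livers, against 34.1, 29.9 and 25.9 FPKM in flox livers (log2 fold change -1.33, limma BH adjusted p = 0.041). It lay below the flox range in every HKO library, and lost the call without any 1 library other than HKO 3 (limma BH adjusted p between 0.0501 and 0.165), and stood at 0.0448 without that one. Nectin2 also lost the call with no filter on level (limma BH adjusted p = 0.1265) and with the replicate number as a block (limma BH adjusted p = 0.1059). Tomm40, a mitochondrial import channel between Apoe and Nectin2, had 21.4, 24.5 and 26.3 FPKM in HKO, against 38.1, 36.6 and 27.1 FPKM in flox, and did not pass (log2 -0.47, limma BH adjusted p = 0.229). Apoc4 had 219, 971 and 987 FPKM in HKO, against 693, 837 and 875 FPKM in flox. Its log2 fold change was -0.42, and 0.30 without HKO library 1, so its direction rested on that library. Of the 12 genes within 100 kb that are not among the 10, 7 were tested and Nectin2 was the 1 that passed.

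Apob and Mttp, the scaffold of very low density lipoprotein and its lipid loader, had overlapping groups. Apob had 366, 240 and 265 FPKM in HKO livers, against 358, 350 and 282 FPKM in flox livers. Mttp had 86, 52.5 and 68.4 FPKM in HKO livers, against 90.4, 88.9 and 69.6 FPKM in flox livers. HKO library 1 was the highest of its group for each, and library 2 the lowest. The log2 fold changes were -0.20 (95% interval -0.67 to 0.26) for Apob and -0.28 (-0.77 to 0.21) for Mttp, and both intervals include 0. Without HKO library 1 they were -0.38 for Apob and -0.45 for Mttp, and without HKO library 2 they were -0.08 for Apob and -0.10 for Mttp. The ratio of Mttp to Apob FPKM was 0.235, 0.218 and 0.259 in HKO, against 0.252, 0.254 and 0.246 in flox.

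Apoa2, the second protein of HDL, had 2339, 4064 and 4616 FPKM in HKO livers, against 4178, 5011 and 5330 FPKM in flox livers. The groups overlapped, again with HKO library 1 lowest, and the log2 fold change was -0.45 (SE 0.27, limma BH adjusted p = 0.432) or -0.15 without that library. Apoa2 shares 951 bases with Tomm40l on the other strand, and the strand setting of the counting is not given, so a part of its reads could belong to that gene.

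**Figure D2:**
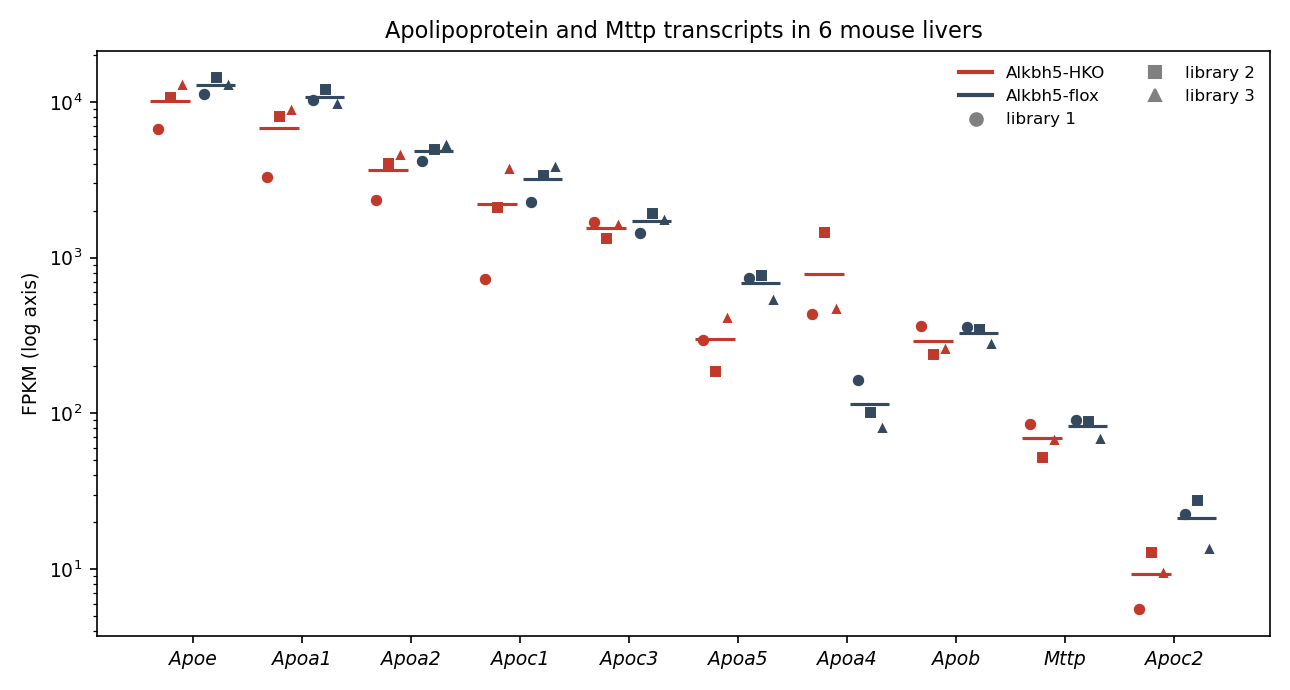
FPKM of the 10 genes in each library on a log axis, ordered by mean level, with HKO (red) left of flox (dark) and a bar at each group mean; marker shapes give the library number. Apoa4 is the 1 gene with HKO above flox, at 437 to 1451 against 81.3 to 163 FPKM, and HKO library 1 (circle) lies below its group for Apoe, Apoa1, Apoa2 and Apoc1.

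Over the 10 genes, 1 had a higher and 9 a lower mean log2 level in HKO, with a median log2 fold change of -0.42, where the median of all 10453 tested genes was -0.02. By limma with BH adjustment 0 of the 10 passed over all genes, where 0.488% of all tested genes did, and voom on recovered fragments also passed 0. At an unadjusted p under 0.05 there were 3 of 10, Apoa4, Apoa5 and Apoc2, where all tested genes gave 17.0%. The groups did not overlap for 4 of 10, these 3 and Apoa1, where all tested genes gave 25.4%. Without HKO library 1 the median was -0.26. No gene of the 10 changed direction or gained a call in 17 alternatives.

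HKO library 1 took a particular shape among these genes. It was the lowest of its group for 6 of 10, Apoa1, Apoa2, Apoa4, Apoc1, Apoc2 and Apoe, and the highest for 3, Apob, Apoc3 and Mttp. The 10 genes together made up 3.5%, 6.22% and 6.82% of the summed FPKM in HKO, against 6.18%, 7.27% and 7.6% in flox, so the low HKO value was library 1. Alb, which encodes albumin, was at 39984 FPKM in that library, the highest of the 6. Over all tested genes, the same library differed with gene length. Genes of up to 1000 bases had a median log2 level of -0.21 relative to the other HKO libraries, and genes over 4000 bases one of 0.13. By the same measure, HKO library 2 stood at 0.08 and -0.08 and HKO library 3 at 0.20 and -0.05. These 2 are set against means that include library 1. Within flox, libraries 1, 2 and 3 stood at -0.12 and 0.04, at 0.04 and 0.01, and at 0.11 and -0.05. Of the genes lowest in HKO library 1, Apoc1 (554 bases), Apoc2 (813), Apoa2 (936) and Apoa1 (988) are under 1000 bases. Apoe (1586) and Apoa4 (1666) are longer. Of those highest in HKO library 1, Mttp (4550) and Apob (13952) are long, and Apoc3 (746) is short. The part of gene length in these values was not tested.

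**Figure D3:**
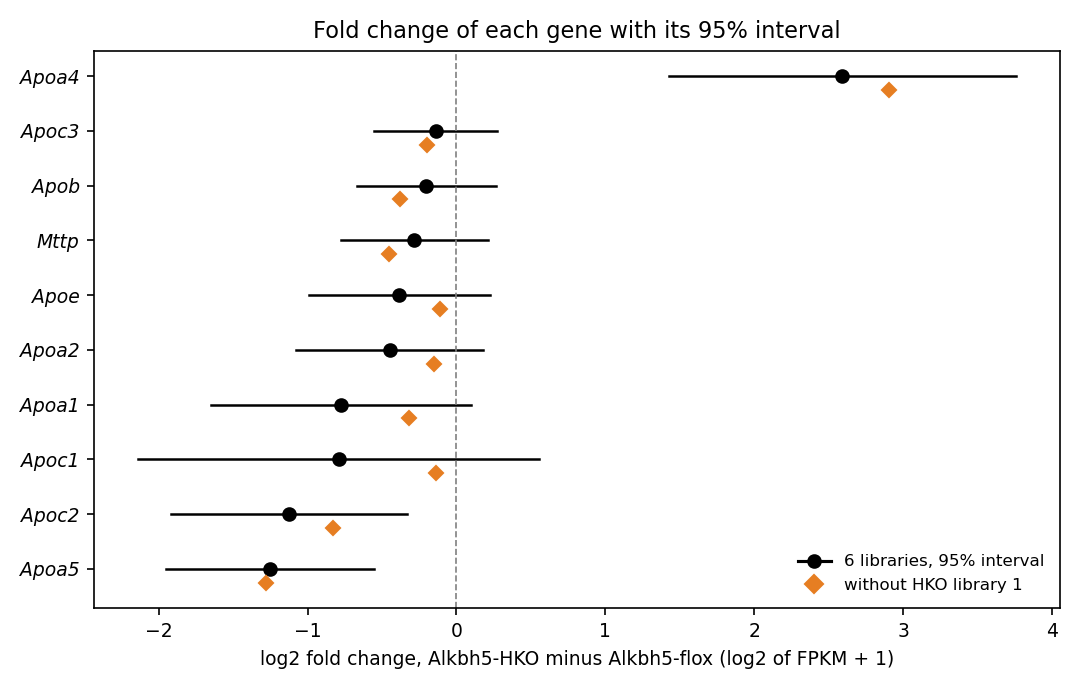
Log2 fold change of each gene (horizontal axis, HKO minus flox) from all 6 libraries with its 95% interval (black), and the value without HKO library 1 (orange). The intervals of Apoa4, Apoa5 and Apoc2 exclude 0 before adjustment, and leaving out the library moves Apoa1 to -0.32 and Apoc1 to -0.14 but leaves Apoa5 at -1.28.

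Around these 10 genes, 83 further genes of lipoprotein biology were listed by role, of which 77 were tested and 1 passed. Of 11 other apolipoprotein genes 8 were tested, with 7 higher and 1 lower in HKO and a median log2 fold change of 0.41. That median was 0.23 over genes with a mean of at least 5 FPKM. None passed by limma with BH adjustment and 1, Apol9a, by voom. At an unadjusted p under 0.05 there were 3 of 8 (Apol7a, Apol9a and Apol9b), where all tested genes gave 17.0%. Apol9a, an intracellular APOL family gene that interferon induces in mouse, had 62.8, 81.5 and 76.6 FPKM in HKO, against 40.4, 34.5 and 32.7 FPKM in flox (log2 1.01, limma BH adjusted p = 0.0525). Its groups did not overlap, and it passed in 7 of 17 alternatives (limma BH adjusted p between 0.0321 and 0.186). Apol9b had a log2 fold change of 0.83 and a limma BH adjusted p of 0.0751. Apol9a and Apol9b are near-identical, so reads may have been split between them. The secreted apolipoproteins Apof (log2 0.23) and Apoh (0.18) overlapped between groups. Apom, an HDL protein that carries sphingosine-1-phosphate, was at 12.4 FPKM in HKO library 1 and at 0.652 to 1.11 FPKM in the other 5 libraries. Its log2 fold change was 1.03, or 0.09 without HKO library 1, so it rested on that library. The annotation and the handling of shared reads are not given, so the Apom level is uncertain.

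Of 3 genes that edit Apob messenger RNA none passed by limma with BH adjustment or by voom. At an unadjusted p under 0.05 there was 1 of 3, where all tested genes gave 17.0%. Apobec1, the cytidine deaminase that creates the stop codon of the short form APOB48, had 4.13, 3.91 and 3.98 FPKM in HKO, against 6.71, 5.49 and 6.9 FPKM in flox (log2 -0.55, limma BH adjusted p = 0.0996). All HKO libraries lay below all flox libraries and close together. Its cofactors A1cf (log2 -0.15) and Rbm47 (0.08) overlapped between groups, and each changed sign with 1 library left out.

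Of 22 genes of particle assembly and export 14 lay higher and 8 lower, around a median of 0.03 on the log2 scale that was -0.03 without HKO library 1 and -0.01 without flox library 3. None passed by limma with BH adjustment or by voom. At an unadjusted p under 0.05 there were 2 of 22, where all tested genes gave 17.0%. The lipid droplet gene Cidec was at 2.65, 2.11 and 2.79 FPKM in HKO, against 12.9, 5.76 and 4.49 FPKM in flox (log2 -1.19, limma BH adjusted p = 0.146). The carboxylesterase Ces1g was at 154, 112 and 111 FPKM in HKO, against 65, 65.7 and 59.6 FPKM in flox (log2 0.96, limma BH adjusted p = 0.0664), and belongs to a family of near-identical genes whose reads may be shared. Aadac, an endoplasmic reticulum lipid hydrolase, had a log2 fold change of 0.39, or 0.23 without HKO library 1. P4hb, the disulfide isomerase that is the other subunit of the MTTP complex, had a log2 fold change of 0.24 with overlapping groups.

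Of 9 genes of HDL formation and remodelling 3 lay higher and 6 lower, around a median of -0.20 on the log2 scale that was -0.11 without flox library 3. None passed by limma with BH adjustment or by voom. At an unadjusted p under 0.05 there were 2 of 9, where all tested genes gave 17.0%. Lcat, which esterifies HDL cholesterol with APOA1 as cofactor, had 189, 238 and 219 FPKM in HKO, against 298, 342 and 256 FPKM in flox (log2 -0.47, limma BH adjusted p = 0.223). Scarb1, the HDL receptor, had 29.9, 52.7 and 48.1 FPKM in HKO, against 56, 66 and 54.4 FPKM in flox (log2 -0.46, limma BH adjusted p = 0.352). Both lay lower in all HKO libraries, as Apoa1 did, and Scarb1 stood at -0.21 without HKO library 1. The HDL-bound enzyme Pon1 lay higher in all of them (log2 0.35, limma BH adjusted p = 0.24). Endothelial lipase, Lipg, had 3.72, 2.2 and 5.19 FPKM in HKO, against 15.3, 15.8 and 2.51 FPKM in flox (log2 -1.12), with flox library 3 apart from its group (-1.87 without it, and -0.74 without flox library 2).

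Of 12 tested genes of lipoprotein lipase control and uptake 8 lay higher and 4 lower, around a median of 0.07 on the log2 scale that was -0.06 without HKO library 2 and 0.01 without flox library 3. None passed by limma with BH adjustment or by voom. At an unadjusted p under 0.05 there was 1 of 12, where all tested genes gave 17.0%. Angptl8, a secreted regulator of lipoprotein lipase, was at 5.56, 78.7 and 14.4 FPKM in HKO, against 6.23, 13.4 and 14.7 FPKM in flox (log2 0.77), a difference carried by HKO library 2. Gpihbp1, the endothelial anchor of the lipase, had a log2 fold change of -0.42 with overlapping groups.

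Of 23 tested transcription factors that act on apolipoprotein genes 6 lay higher and 17 lower, around a median of -0.22 on the log2 scale, and 1 passed. That median was -0.11 without HKO library 1 and -0.31 without HKO library 3. At an unadjusted p under 0.05 there were 2 higher and 4 lower of the 23, where all tested genes gave 17.0%. Srebf1, a regulator of fatty acid synthesis, rose to 92, 69.6 and 64.9 FPKM in HKO, against 21.4, 31.5 and 29 FPKM in flox (log2 1.44, limma BH adjusted p = 0.041). It lost the call with any 1 library left out (limma BH adjusted p between 0.0552 and 0.158). Srebf1 also lost it with no filter on level (limma BH adjusted p = 0.1285) and with the replicate number as a block (limma BH adjusted p = 0.1064). Creb3l3, a liver factor released from the endoplasmic reticulum that activates Apoa4, Apoa5 and Apoc2 in mouse, had 122, 121 and 164 FPKM in HKO, against 281, 254 and 191 FPKM in flox (log2 -0.83, limma BH adjusted p = 0.112). It lay lower in all HKO libraries, and its part in the levels of Apoa4, Apoa5 and Apoc2 was not tested. Hnf4a, the nuclear receptor of hepatocyte identity, had 83.2, 116 and 133 FPKM in HKO, against 165, 164 and 151 FPKM in flox (log2 -0.55, limma BH adjusted p = 0.216). The groups did not overlap, and HKO library 1 was the lowest, with a log2 fold change of -0.36 without it. Nr1h3, the oxysterol receptor that acts on Apoe, had a log2 fold change of -0.41, or -0.26 without HKO library 1. Nr0b2, a corepressor, had one of -0.78 with overlapping groups, which was -0.41 without HKO library 1 and -1.32 without HKO library 2.

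**Figure D4:**
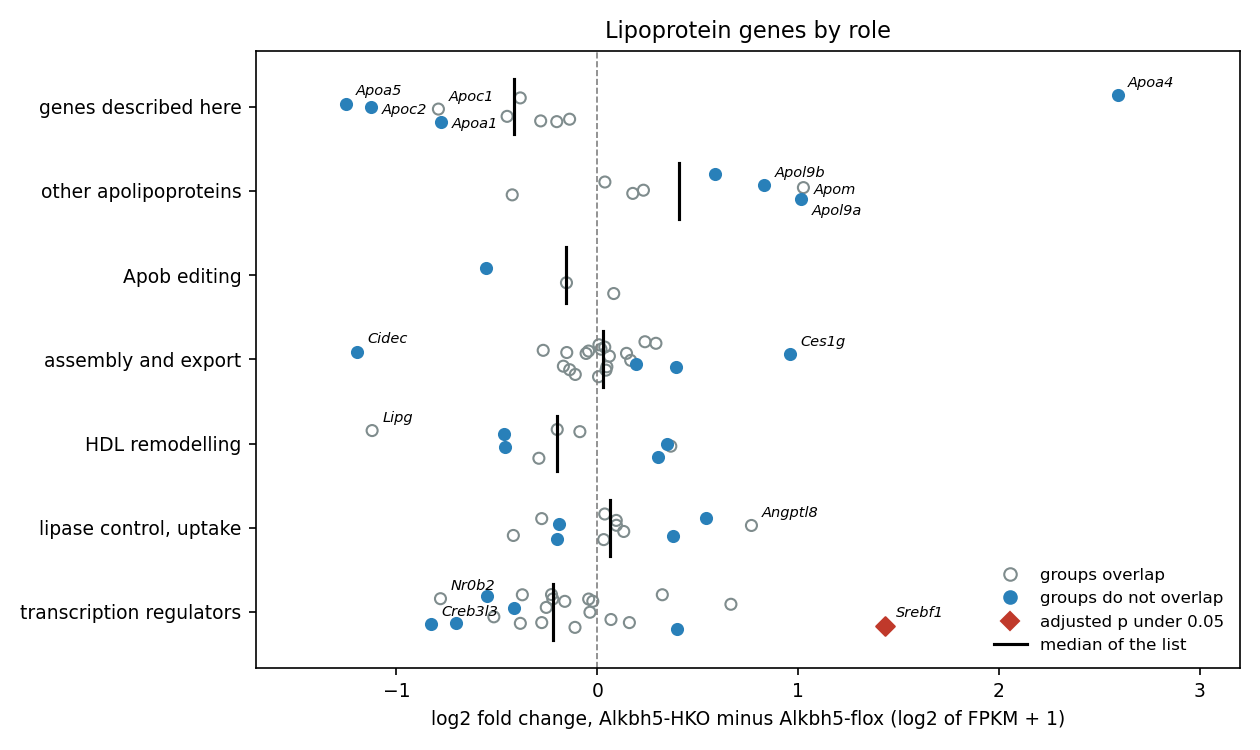
Log2 fold change (horizontal axis, HKO minus flox) of each tested gene by role, with filled points where the 3 HKO and 3 flox libraries do not overlap, a diamond where the limma BH adjusted p is under 0.05, and a bar at the median. Apoa4 at 2.59 lies above every other gene shown, and Srebf1 at 1.44 is the 1 that passed.

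Over the 6 libraries, the profiles nearest to Apoa4 were those of Tgtp1, Fam26f, Gbp3, Gsta2 and Gm3776, with a root mean square difference in centred log2(FPKM + 1) of 0.55, 0.62, 0.70, 0.73 and 0.73. They were chosen for this likeness, so their higher level in HKO is not a result of its own. Tgtp1, Gsta2 and Gm3776 have near-identical relatives. The nearest profiles to Apoe were those of Gm4204, Ino80b, 2810410L24Rik, Hdhd3 and Drap1, at 0.057 to 0.069, which shared its low HKO library 1.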

How the data were processed

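Per the labels, poly(A) libraries of 6 livers were read from both ends on an Illumina NovaSeq. The authors used HISAT2 2.0.5 on GRCm38.p6 and featureCounts 1.5.0-p3, per the series text. CASAVA and DESeq2 1.20.0 are named as well in the submitters' processing notes. No source used here gives the annotation, the strand setting or the handling of multiply mapped reads.

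The deposited values are FPKM, 1 column per library, made by the authors with a gene length that is also deposited. Multiplied by that length they were whole multiples of 1 step in 100% of values (tolerance 0.001), which gave the fragment counts back. The library size behind the FPKM was not the plain total of these counts: its ratio to that total was 0.925 in flox library 2 and 1.08 in flox library 3. With the counts over their own sum, the median log2 fold change of the 10 genes was -0.34. Precision depends on the spread between the 3 libraries of a group. With 1 library per animal, spread between animals and spread from preparation cannot be told apart.

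Genes averaging at least 1 FPKM were tested with limma 3.58.1 in R 4.3.3 (trend and robust options) on log2(FPKM + 1), HKO minus flox, BH adjustment at 0.05 over all 10453. The added 1 shrinks the fold change of low genes. Fits were tested on simulated data first. Figures used Python 3.11.15 and matplotlib 3.10.9.

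The 10 genes and all lists were chosen with earlier results of these data known. Named genes were the 10, Alkbh5, each passing list gene, the 3 largest fold changes of each list, passing neighbours within 100 kb, and the 5 nearest profiles to Apoa4 and Apoe. Others (Hnf4a, Nr1h3, Nr2f2, Apoc4, Tomm40, Pon1, Apof, Apoh, Apol7a, P4hb, Alb, Zpr1) were picked after their values were seen. Some list genes are counted in their lists and not reported here by name. One marker was matched under another symbol (Trf). Of the 10 genes 8 matched the RefSeq promoter table.

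Alternatives covered the pseudocount, filter, scaling, variance model, voom on recovered fragments, the replicate number as a block and each library left out.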

Additional observations from a re-analysis of the deposited data

How the results depend on the processing

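None of the 10 genes passed, and none changed direction, in any of 17 alternatives, and their median log2 fold change of -0.42 ranged from -0.42 to -0.29 over the other settings and from -0.62 to -0.26 with a library left out. Over all genes 28 higher and 23 lower genes passed. A pseudocount of 0.1 gave 18 higher and no filter 0 higher and 1 lower, with 2514 genes at an unadjusted p under 0.05 by limma. With a library left out, 0 to 29 higher and 1 to 38 lower genes passed. With the replicate block, 1 higher and 8 lower passed, and no gene of the 10. Deviations of same-numbered libraries correlated at 0.153, -0.145 and -0.0514 over genes. Those of differently numbered libraries ran from -0.157 to 0.248. With 3 libraries a group, these values cannot decide whether same-numbered libraries share more than a number. Of 710 alternative values of 42 other genes followed, 5 reversed, 27 no longer passed and 7 newly passed (all Apol9a), and the other 671 stayed on their side. With a library left out, log2 fold changes ran from -0.43 to 0.0668 for A1cf, -0.0218 to 0.17 for Rbm47, -0.23 to 1.57 for Angptl8, -0.79 to 0.30 for Apoc4 and -0.48 to 0.19 for Zpr1. The cause was not tested. Depth limits Apoc2 most, with 72 fragments in its lowest library.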

Other observations

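HKO library 2 stood apart in another way than library 1. It had the most Apoa4 (1451 FPKM) and the least Apoa5 (188 FPKM) of all 6 libraries, and the least Apob (240 FPKM) and Mttp (52.5 FPKM). Angptl8, at 78.7 FPKM there, was at 5.56 to 14.7 FPKM in the other 5, and the interferon-inducible GTPase Tgtp1, at 50.4 FPKM there, was at 9.14 and 10.3 FPKM in the other HKO libraries and 1.67 to 3.65 FPKM in flox. Nr2f2, a nuclear receptor that competes with HNF4A on shared sites, lay higher in all HKO libraries (6.42, 6.47 and 7.88 FPKM) than in flox (4.19, 5.28 and 5.65 FPKM), with a log2 fold change of 0.39 and a limma BH adjusted p of 0.238.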
